A study of Mus musculus with 8 samples.

Results

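The clustered protocadherins are cell-surface proteins of the cadherin superfamily whose genes lie side by side in 3 clusters, called alpha, beta and gamma. Genes were taken as members where the symbol began with Pcdha, Pcdhb, Pcdhga, Pcdhgb or Pcdhgc followed by a number, or with Pcdhac. By this rule 58 of the 27179 genes in the count table were members: 14 in the alpha cluster, 22 in the beta cluster and 22 in the gamma cluster. The study counted messenger RNA per gene in the embryonic cerebral cortex of 8 mice, with each library from its own embryo. In 4 embryos, labelled Taf8 +/+, the gene for the TFIID subunit Taf8 was intact. The other 4, labelled Taf8 -/lox, carried 1 null allele and 1 allele with lox sites, and are called Taf8-deleted. The labels name no embryonic age, strain or recombinase for either group. They therefore give neither the cells in which Taf8 was removed nor the presence of a recombinase in the intact embryos. Taf8 itself was counted 1491, 1383, 1222 and 1403 times in the 4 intact embryos but 30, 14, 29 and 14 times in the 4 deleted embryos, which matches the labels. Little Taf8 RNA was thus left in the sampled tissue as a whole.

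Each alpha and gamma gene has a large variable first exon of its own that encodes the whole extracellular and membrane-spanning part of the protein, and this exon is spliced to a few constant exons shared by the entire cluster. Beta genes consist of a single coding exon and have no constant part. A neuron switches on a small set of the alternate variable exons, largely at random, through loops between promoters and distant enhancers that the DNA-binding protein Ctcf and the ring-shaped cohesin complex hold together. The C-type genes Pcdhac1, Pcdhac2, Pcdhgc3, Pcdhgc4 and Pcdhgc5, at the ends of the alpha and gamma clusters, are chosen differently and more widely. On the cell surface the proteins bind only to identical copies on a facing membrane, and this matching lets branches of the same neuron recognise and avoid each other. Because a tissue sample averages over many neurons, the counts give the summed use of each variable exon and not the choice of any single cell.

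All members lie on mouse chromosome 18 (build GRCm38, the assembly behind mm10), between 36930285 and 37841873, and are read from the plus strand. The alpha genes span 36930285 to 37188897, the beta genes 37264998 to 37521419, and the gamma genes 37661775 to 37841873. In the GENCODE models, the 14 alpha members share 3 constant exons of 59, 89 and 2712 bases at 37156155 to 37156213, 37159265 to 37159353 and 37184946 to 37187657. These shared bases make up 48.6% to 54.9% of an alpha model. The 22 gamma members share constant exons at 37825021 to 37825079, 37833265 to 37833353 and 37839903 to 37841873, which make up 41.7% to 45.9% of a gamma model.

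The shared exons set a limit on the counts, because a read from a constant exon belongs to no single member. How such reads were counted is not stated in the labels or the submitters' notes. The counts of Pcdha4 bear on it: it was counted 1, 5, 1 and 1 times in intact and 2, 0, 3 and 4 times in deleted libraries, although its model holds the same constant exons as the 13 other alpha members. Reads from the alpha constant exons were therefore not credited to every alpha member, and at most 5 per library can have been credited to Pcdha4. The row of Gm37013, a read-through gene annotated across the alpha to gamma region, held 0 counts in all 8 libraries. For the gamma cluster no member was close to 0, so the same check gives a looser limit there. The least counted gamma member, Pcdhgc5, had 135, 165, 173 and 142 counts in intact and 157, 107, 91 and 136 in deleted libraries. At most 173 constant-exon reads in a library can therefore have been credited to every gamma member, where the cluster summed to 14098 to 19871 counts. Credit to only some gamma members could not be checked. Levels per kilobase below divide by the bases that a member does not share with its cluster.

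Near-identical stretches were the second limit. Of the 58 members, 31 had at least 1 window of 100 bases, the length of a read, in the first exon that also occurs in another gene's transcripts. Genes with exons overlapping that first exon, antisense genes among them, were left out of this search. Pcdhb21 and Pcdhb22, whose models share 455 bases, were therefore scored at 0. The share of such windows was 13.0% or less, with the highest share in Pcdha11. No such window was found in Pcdhgc3, Pcdhgc4, Pcdhac1, Pcdhac2, Pcdhga6, Pcdhga11 or Pcdhga12. The libraries carry no strand information, and an antisense gene is annotated over the first exon of 15 members, among them Pcdhgc3 (BC037039) and Pcdhga10, Pcdhgb7, Pcdhga11, Pcdhgb8 and Pcdhga12 (all Gm26672). Reads of those members and of their antisense partners cannot be told apart.

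The libraries held 39590959 to 44788200 counts, of which the members together took 19939 to 26965, or 0.0490% to 0.0637%. No member was at 0 in every library, but 3 (Pcdha1, Pcdha4 and Pcdhb1) had under 20 counts in each. A count of 0 allows up to 3 counts, which is 0.0670 to 0.0758 per 1000000 of the unscaled library total. Such limits cover counting error only, because the reads carry no molecular identifiers and are not independent molecules. Levels are given below as CPM, the count per 1000000 of the TMM-scaled library size, and changes as the log2 fold change of Taf8-deleted over Taf8-intact with its standard error (SE). A gene is said to have risen or fallen where the p of edgeR's quasi-likelihood test, adjusted over all genes tested by the Benjamini-Hochberg method, was under 0.05. The p-values measure the spread between 4 embryos a group. The animal numbers were 408.4, 408.5, 408.6 and 409.2 in the intact group and 456.1, 472.1, 477.1 and 486.1 in the deleted group. The labels do not say what the parts of these numbers stand for, such as a litter. Any litter shared within a group is not allowed for in the p-values, and a difference between litters could not be told apart from genotype.

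Markers of the labelled tissue were present in every library, and no gene of the neuron, radial glia or other marker lists was at 0 throughout. The 12 neuron markers summed to 7131 to 7851 CPM in intact and 5352 to 5842 CPM in deleted libraries, with 10 lower and 1 higher. So 91.7% of them changed, against 63.5% of all genes tested. The 11 radial glia and progenitor markers summed to 2606 to 2989 and 3512 to 3761 CPM, with 7 higher and 3 lower (90.9% changed). In bulk tissue, fewer cells of a type and less RNA per cell cannot be told apart, and the part of these shifts in the member values below was not tested. Tissue beside the cortex was also seen unevenly: 6 choroid plexus markers summed to 15.0 to 300.2 CPM in intact and 15.0 to 926.1 CPM in deleted libraries, and 7 meningeal markers to 17.1 to 38.5 and 19.5 to 147.3 CPM.

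**Figure D1:**
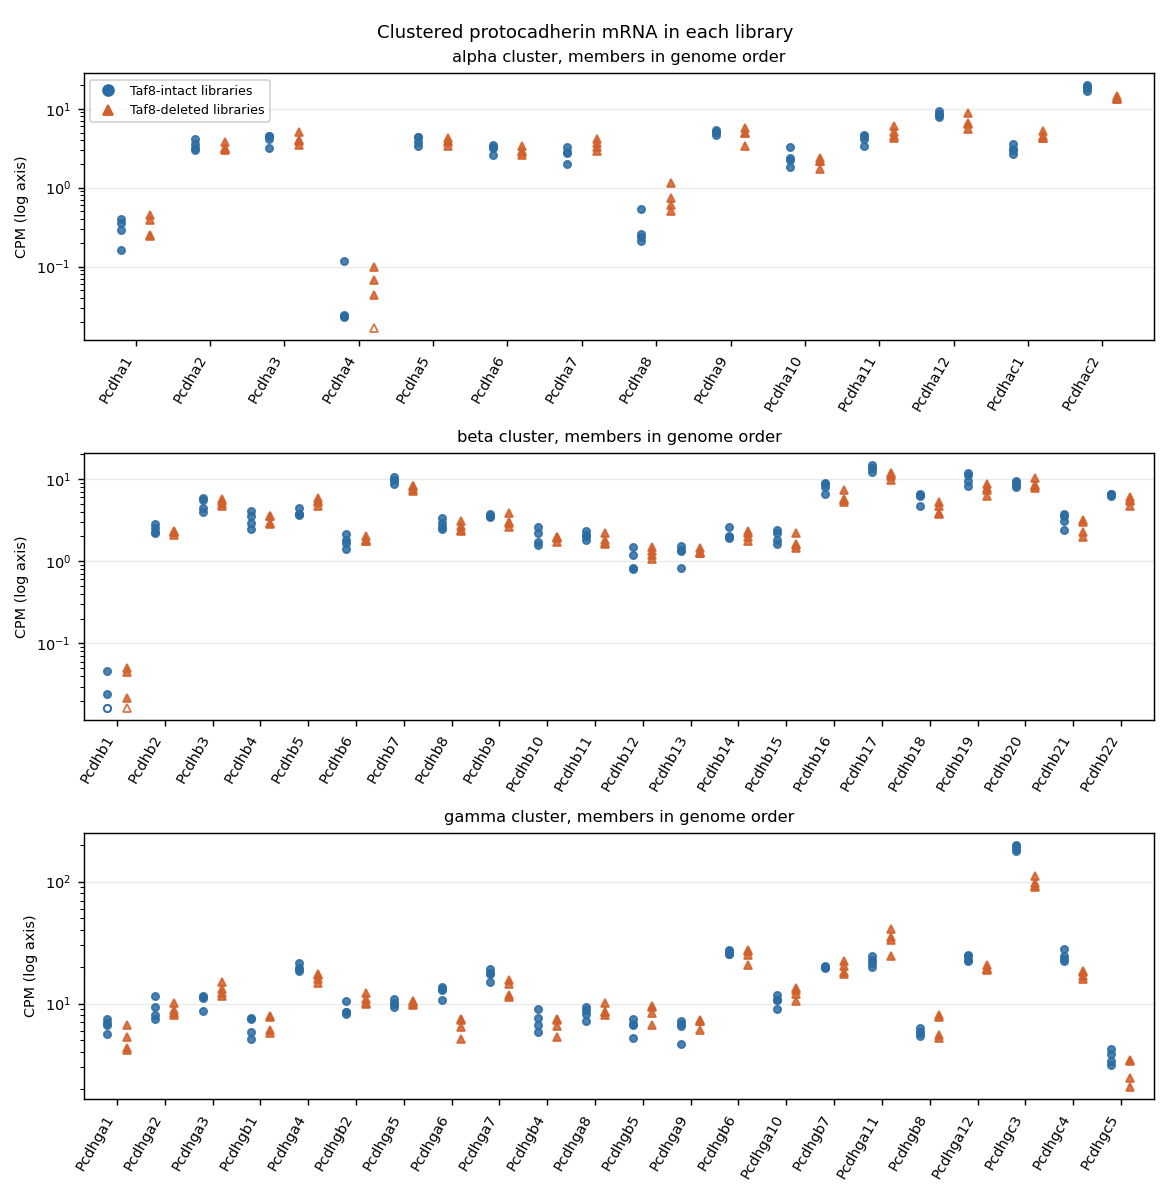
CPM of each of the 58 members in each library, on a log axis, with the members of each cluster in genome order. Circles are the 4 Taf8-intact libraries and triangles the 4 Taf8-deleted libraries, and open symbols at the bottom edge mark a count of 0. Pcdhgc3 stands above all other members in every library, and Pcdha4 and Pcdhb1 stand below them.

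The members were expressed at very unequal levels in the intact cortex. Pcdhgc3 had by far the highest level: 74.1 CPM per kilobase of its own exon, which was 35.9 times the median of the members (2.06) and 7.19 times the next member. That next member was Pcdhgb6, at 10.3 CPM per kilobase. Behind it came Pcdhga11 (8.56), Pcdhgc4 (8.46), Pcdhgb7 (8.25), Pcdhga4 (8.16), Pcdhga12 (7.99) and Pcdhac2 (7.18), a run in which neighbouring values lie close together and no order was tested. The subgroups overlapped widely below these leaders. The intact level per kilobase had a median of 1.35 over the 12 alpha alternate genes, 1.14 over the 22 beta genes, 4.26 over the 12 gamma A genes and 3.08 over the 7 gamma B genes. Within each of these subgroups the most highly expressed gene was Pcdha12 (3.56), Pcdhb17 (4.10), Pcdhga11 (8.56) and Pcdhgb6 (10.3), in that order. The first genes of the alpha and beta clusters were among the lowest: Pcdha1 had 7 to 18 counts a library and Pcdhb1 had 0 to 2.

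Of the 58 members, 56 had enough counts to be tested, and Pcdha4 and Pcdhb1 had not. Among the 56, 7 rose and 15 fell in the Taf8-deleted cortex, so that 22 (39.3%) changed. Over all 16074 genes tested, 63.5% changed, 30.6% upward and 32.9% downward. With library totals in place of TMM scaling the split of the members was 10 higher and 12 lower, and with upper-quartile factors 9 higher and 12 lower. Over all genes, 10310 and 10317 of 16074 changed in these settings. The members' own shares with TMM scaling were 12.5% upward and 26.8% downward. The members were also expressed lower and measured less evenly than the average gene: their median log2 CPM was 2.58 against 4.51, and their median biological coefficient of variation was 12.9% against 6.59%. The members' median log2 fold change was -0.07, beside 0.00 over all genes. Most changes were small. Only 4 of the 56 (7.14%) both passed the threshold and changed at least 1.5-fold, namely Pcdha8 and Pcdhga11 upward and Pcdhgc3 and Pcdhga6 downward, where the share over all genes was 20.6%. In 12 of the 56 (21.4%) the 2 groups of libraries did not overlap, against 57.7% of all genes.

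The count of members that rose varied with the library left out. It was 7 with all libraries, and 4 without Taf8-intact replicate 1 or without Taf8-deleted replicate 1. In those fits 9706 of 16236 and 9645 of 16175 genes changed. The count was 5 without Taf8-deleted replicate 3, and 7 or 8 without any other single library. A fit with fewer libraries also has less power, and the part of this in the counts was not tested. The count without overlap was 20 of 56 (35.7%) when Taf8-deleted replicate 4 was left out, where all genes stood at 63.0%. Without Taf8-deleted replicates 2 and 3, which had the highest meningeal sums, 12 members passed, 4 upward and 8 downward. That fit kept only 2 deleted libraries, and 8885 of 16375 genes passed in it. The parts of the smaller number of libraries and of the meningeal tissue in this lower count were not tested. The 8 members that passed in the fit with all libraries and in each of 19 other settings were Pcdhac1, Pcdhac2, Pcdhb5, Pcdhb7, Pcdhga6, Pcdhga12, Pcdhgc3 and Pcdhgc4.

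**Figure D2:**
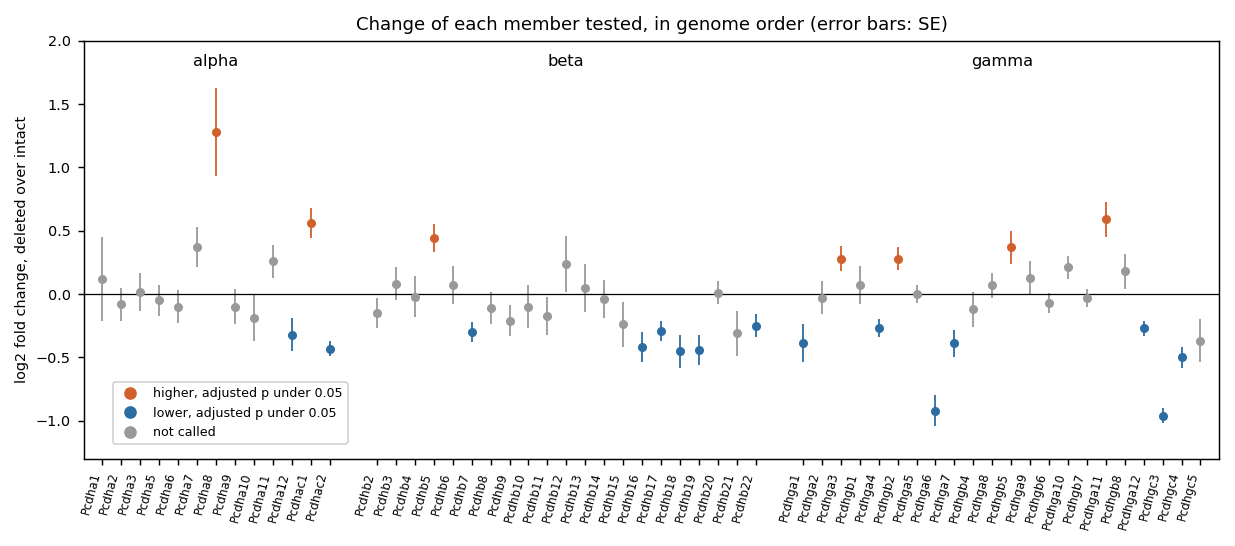
Log2 fold change of each of the 56 members tested, in genome order within the alpha, beta and gamma clusters, with bars showing the SE. Colours mark members that were higher, lower or not called at an adjusted p under 0.05. Pcdhgc3 and Pcdhga6 lie lowest, at -0.96 and -0.92, and most other members lie within 0.5 of 0.

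Of the 5 C-type genes 4 (80.0%) changed, against 63.5% of all genes tested, and Pcdhgc3 had the lowest p of all members. The C-type genes had a median biological coefficient of variation of 7.86% and a median log2 CPM of 4.01. The other members had 13.1% and 2.57, and the part of this difference in the number of calls was not tested. Pcdhgc3, whose protein acts through the scaffold protein Axin1 to promote branching of cortical dendrites, had 194.3, 186.8, 200.9 and 179.1 CPM in the intact libraries and 92.2, 97.0, 91.0 and 111.4 CPM in the deleted ones. Every deleted library lay far below every intact library. The mean fell from 190.3 ± 9.38 to 97.9 ± 9.36 CPM (SD, n = 4 per group), a log2 fold change of -0.96 (SE 0.06, edgeR adjusted p = 1.67e-07), or a drop to 0.514 of the intact level. The counts behind these values were 7554 to 8360 in intact and 4026 to 4466 in deleted libraries. Over the 19 other settings the log2 fold change lay between -1.02 and -0.90. BC037039, annotated antisense over the first exon of Pcdhgc3, has no row under that symbol in the count table, so any reads from it could not be separated.

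Pcdhgc4, the gamma isoform on which survival of many neurons depends, had 22.5, 23.0, 28.1 and 24.7 CPM in intact and 18.3, 18.6, 15.8 and 16.9 CPM in deleted libraries. The groups did not overlap. Its log2 fold change was -0.50 (SE 0.08, edgeR adjusted p = 1.17e-04). Pcdhgc5, the least expressed C-type gamma gene, had 3.14 to 4.21 CPM in intact and 2.06 to 3.44 CPM in deleted libraries, with overlap. Its log2 fold change was -0.37 (SE 0.17), and its edgeR adjusted p of 0.0791 did not pass. Pcdhgc5 passed in 4 of the 19 other settings, among them those without deleted replicate 1 (-0.46, adjusted p = 0.0400) or deleted replicate 4 (-0.46, 0.0390), and its log2 fold change ranged from -0.50 to -0.10.

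The 2 C-type genes of the alpha cluster moved in opposite directions. Pcdhac2, which serotonergic axons need to spread out evenly in their target areas, had 18.7, 17.0, 19.8 and 18.2 CPM in intact and 13.2, 14.6, 13.2 and 13.8 CPM in deleted libraries, with no overlap. It fell by 0.43 on the log2 scale (SE 0.06, edgeR adjusted p = 7.15e-05). Pcdhac1 had 3.02, 3.11, 3.55 and 2.66 CPM in intact and 5.26, 4.22, 4.47 and 4.26 CPM in deleted libraries, again with every deleted library on the same side of every intact one. It rose by a log2 fold change of 0.56 (SE 0.12, edgeR adjusted p = 0.00124). The C-type genes thus gave 3 falls, 1 rise and 1 gene that did not pass. The promoters of Pcdhac2, Pcdhgc4 and Pcdhgc5 are known to lack the conserved sequence element that most other variable exons carry and that Ctcf binds.

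**Figure D3:**
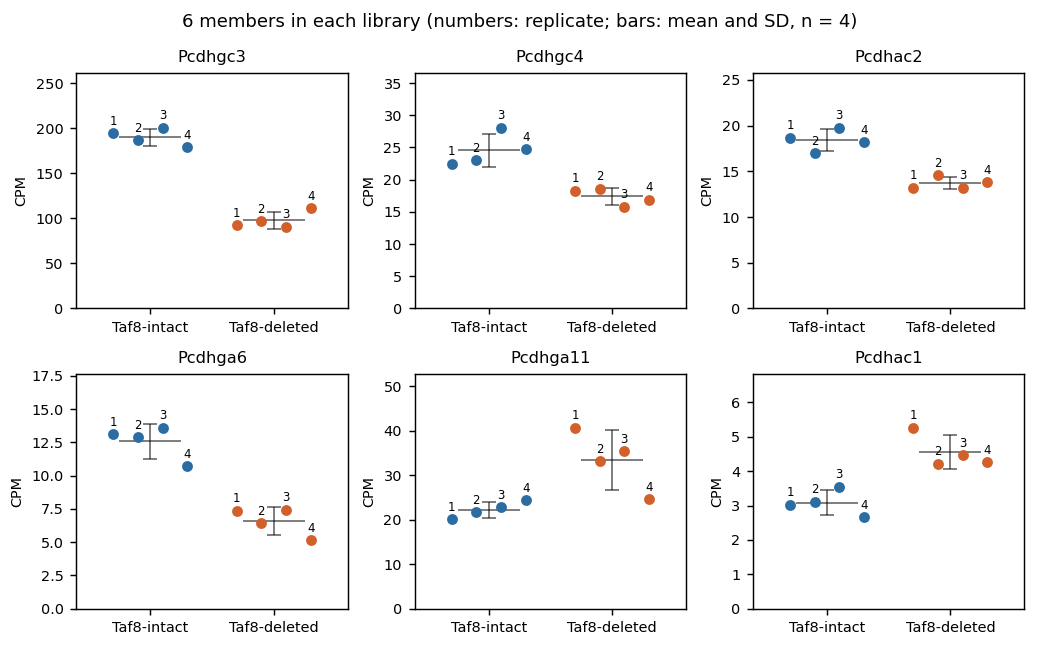
CPM of Pcdhgc3, Pcdhgc4, Pcdhac2, Pcdhga6, Pcdhga11 and Pcdhac1 in each library, numbered by replicate, with the mean and SD of the 4 libraries of each group. The groups do not overlap in any of the 6 panels, but for Pcdhga11 replicate 4 of the deleted group (24.6 CPM) sits just above the highest intact library (24.4 CPM).

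Among the 12 gamma A genes, 5 fell, 2 rose and 5 did not pass, so that 58.3% changed, against 63.5% of all genes tested. Pcdhga6 changed most, with 13.1, 12.9, 13.6 and 10.7 CPM in intact and 7.38, 6.44, 7.43 and 5.16 CPM in deleted libraries. All deleted libraries were below all intact ones. The log2 fold change was -0.92 (SE 0.12, edgeR adjusted p = 2.51e-05). Of the gamma A genes on either side, Pcdhga5 had 10.1 ± 0.615 and 10.1 ± 0.357 CPM (log2 fold change 0.00, SE 0.07), and Pcdhga7 fell by 0.39 on the log2 scale (SE 0.11). Whether these differ from Pcdhga6 was not tested.

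Pcdhga7 had 17.5, 15.0, 17.9 and 19.1 CPM in intact and 14.4, 11.7, 11.3 and 15.7 CPM in deleted libraries. Only deleted replicate 4 reached into the intact range (edgeR adjusted p = 0.0103). Pcdhga1, the first gene of the gamma cluster, had 6.65, 5.68, 7.52 and 6.95 CPM in intact and 5.28, 4.13, 6.64 and 4.36 CPM in deleted libraries. It too overlapped through 1 deleted library, replicate 3, and its log2 fold change was -0.39 (SE 0.15, edgeR adjusted p = 0.0347). This call was lost without intact replicate 1, 3 or 4, or without deleted replicate 1, 2 or 4, with edgeR adjusted p from 0.0602 to 0.100 for Pcdhga1 and log2 fold changes from -0.40 to -0.29. Without deleted replicates 2 and 3 the log2 fold change of Pcdhga7 was -0.21 (adjusted p = 0.0970). Outside the naming rule, the 2 other gamma A genes that fell were Pcdhga4 (from 19.7 ± 1.22 to 16.3 ± 1.28 CPM) and Pcdhga12 (from 23.7 ± 1.38 to 19.6 ± 0.848 CPM), each with a log2 fold change of -0.27 and no overlap between groups.

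Pcdhga11 was the gamma A gene with the largest rise. It had 20.1, 21.7, 22.8 and 24.4 CPM in intact and 40.7, 33.2, 35.4 and 24.6 CPM in deleted libraries. Deleted replicates 1, 2 and 3 stood well above the intact libraries, and replicate 4 was level with the highest of them. The log2 fold change was 0.59 (SE 0.14, edgeR adjusted p = 0.00576). In the same libraries the choroid plexus markers summed to 926.1, 68.1, 157.8 and 15.0 CPM and the meningeal markers to 63.4, 117.2, 147.3 and 19.5 CPM, so deleted replicate 4, with the lowest Pcdhga11 of its group, also had the lowest of both sums. The intact libraries had choroid plexus sums of 15.0, 18.1, 20.2 and 300.2 CPM and meningeal sums of 27.1, 24.7, 17.1 and 38.5 CPM. Intact replicate 4, with the highest of both sums in its group, also had the highest Pcdhga11 of that group, but its choroid plexus sum was above those of deleted replicates 2 and 3, which had more Pcdhga11. None of the 6 choroid plexus markers passed the test, and 4 of the 7 meningeal markers rose (57.1%, against 30.6% of all genes tested). The 6 endothelial and 4 pericyte markers all rose, and their sums were likewise lowest, within the deleted group, in replicate 4 (157.4 and 89.9 CPM). The part of these tissues in the rise of Pcdhga11 was not tested. Pcdhga11 passed in 18 of the 19 other settings, among them the one without intact replicate 4 and deleted replicate 1. Its log2 fold change lay between 0.50 and 0.72 over the 19 settings. The exception was the fit without deleted replicates 2 and 3, which leaves 2 deleted libraries. There the log2 fold change was 0.56 and the edgeR adjusted p was 0.0515, above the threshold.

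**Figure D4:**
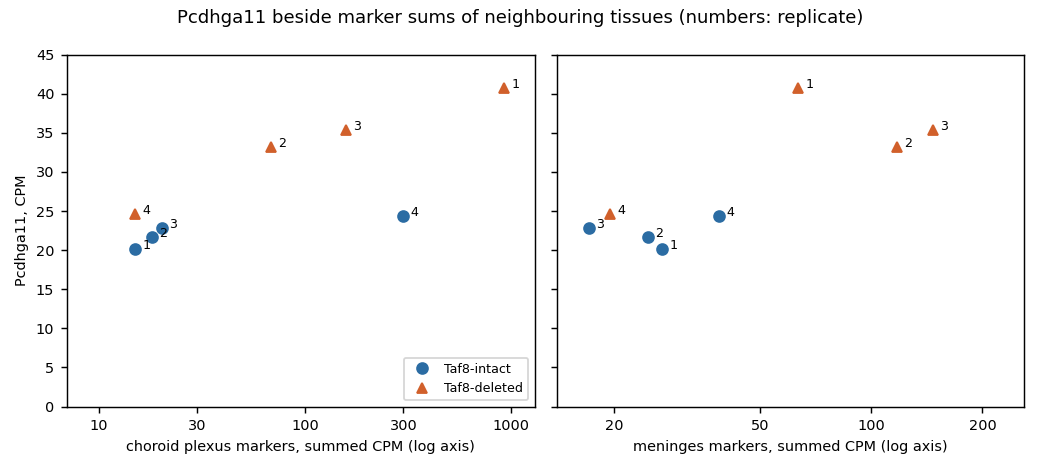
Pcdhga11 in CPM against the summed CPM of 6 choroid plexus markers (left) and 7 meningeal markers (right), both on log axes, in each library, with replicate numbers beside the points. Deleted replicates 1, 2 and 3 lie at 33.2 to 40.7 CPM of Pcdhga11 and deleted replicate 4 at 24.6, just above the highest intact library. Intact replicate 4, at 24.4 CPM of Pcdhga11, has a choroid plexus sum (300.2 CPM) above those of deleted replicates 2 and 3 (68.1 and 157.8 CPM).

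Of the 7 gamma B genes, 2 rose and none fell, so that 28.6% changed, against 63.5% of all genes tested. Pcdhgb5 had 5.23, 6.62, 6.84 and 7.47 CPM in intact and 9.57, 8.30, 9.31 and 6.68 CPM in deleted libraries. Deleted replicate 4 lay within the intact range and the other deleted libraries above it. The log2 fold change was 0.37 (SE 0.13, edgeR adjusted p = 0.0246), and it no longer passed when intact replicate 1 (adjusted p = 0.0663), deleted replicate 1 (0.0600) or deleted replicate 3 (0.0603) was left out. Pcdhgb2 had 8.20, 8.55, 10.4 and 8.56 CPM in intact and 12.3, 11.0, 10.2 and 9.90 CPM in deleted libraries, with overlap only through intact replicate 3. Its log2 fold change was 0.28 (SE 0.09, edgeR adjusted p = 0.0205), and it was lost without intact replicate 1 (0.0623) or deleted replicate 1 (0.0533). Pcdhgb6, the most abundant of the subgroup, had 27.1, 25.3, 25.5 and 27.5 CPM in intact and 27.7, 24.8, 27.0 and 20.7 CPM in deleted libraries. These values overlap widely (log2 fold change -0.07, SE 0.08). Pcdhga3, a gamma A gene outside the naming rule, rose by the same log2 fold change of 0.28 as Pcdhgb2 (SE 0.10, edgeR adjusted p = 0.0333), and was lost without intact replicate 1 (0.0871), deleted replicate 1 (0.0503) or deleted replicate 3 (0.0891). Pcdhgb8, a transcribed pseudogene in the annotation, had 5.83 ± 0.376 and 6.63 ± 1.48 CPM and did not pass.

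In the beta cluster 6 of 21 genes fell and 1 rose, so that 33.3% changed, against 63.5% of all genes tested. Pcdhb18 had 6.16, 6.60, 6.37 and 4.72 CPM in intact and 4.64, 3.86, 3.73 and 5.21 CPM in deleted libraries. Intact replicate 4 and deleted replicate 4 crossed, and the other libraries were apart. Its log2 fold change of -0.45 (SE 0.13, edgeR adjusted p = 0.0108) was the largest fall of the cluster. Pcdhb19 had 11.6, 11.1, 9.32 and 8.28 CPM in intact and 7.71, 6.15, 7.39 and 8.55 CPM in deleted libraries, crossing in the same replicate 4 of each group (log2 fold change -0.44, SE 0.12, edgeR adjusted p = 0.00841). Pcdhb16 had 8.76, 7.89, 8.78 and 6.45 CPM in intact and 5.59, 5.29, 5.72 and 7.31 CPM in deleted libraries. Here too the replicate 4 of each group crossed, and the log2 fold change was -0.42 (SE 0.12, edgeR adjusted p = 0.0104). Pcdhb17, the most abundant beta gene, was counted 578, 573, 606 and 504 times in intact and 495, 429, 504 and 474 times in deleted libraries, or 13.4 ± 1.14 and 10.9 ± 0.901 CPM. On the CPM scale its groups did not overlap, by a small margin, and it fell by 0.29 on the log2 scale (SE 0.08, edgeR adjusted p = 0.00657). With deleted replicates 2 and 3 left out, which leaves 2 deleted libraries, the log2 fold change was -0.28 for Pcdhb18 (adjusted p = 0.141), -0.31 for Pcdhb19 (0.0851), -0.31 for Pcdhb16 (0.118) and -0.25 for Pcdhb17 (0.0501).

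Pcdhb5 was the beta gene that rose, with 3.70, 3.65, 4.45 and 3.72 CPM in intact and 5.39, 5.17, 5.90 and 4.64 CPM in deleted libraries. All deleted libraries were above all intact ones (log2 fold change 0.44, SE 0.11, edgeR adjusted p = 0.00306). Outside the naming rule, Pcdhb7 fell from 9.58 ± 0.726 to 7.79 ± 0.509 CPM (log2 fold change -0.30) and Pcdhb22 from 6.44 ± 0.205 to 5.42 ± 0.559 CPM (log2 fold change -0.25), both without overlap. The call of Pcdhb22 was lost in 10 of 19 other settings, with log2 fold changes from -0.29 to -0.17. Most beta genes that fell lay late in the cluster. Among the first 15 genes in genome order, Pcdhb1 to Pcdhb15, 14 were tested, and 1 fell and 1 rose. Among the last 7, Pcdhb16 to Pcdhb22, 5 fell (71.4%, against 32.9% of all genes tested) and none rose. These 5 calls were all lost without deleted replicates 2 and 3. The last 7 were also expressed higher, with a median log2 CPM of 2.81 against 1.18 for the 14 earlier ones tested. The part of level in the number of calls was not tested. This division was drawn after the values were seen. Over the 21 beta genes the log2 fold change and the place in the cluster had a Spearman correlation of -0.55, the log2 fold change and the level one of -0.52, and place and level one of 0.31. The points share libraries, and the values are given as a description. For the 19 gamma A and B genes the correlation with place was 0.25, and for the 11 alpha alternate genes it was -0.27.

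Of the 11 alpha alternate genes tested, 1 rose, 1 fell and 9 were not called, so that 18.2% changed, against 63.5% of all genes tested. Pcdha12, the most abundant of them and the one nearest the C-type genes, had 7.76, 8.41, 9.32 and 8.63 CPM in intact and 6.68, 5.47, 6.37 and 8.85 CPM in deleted libraries. Deleted replicate 4 lay within the intact range, and the other deleted libraries lay below it. The log2 fold change was -0.32 (SE 0.13) and the edgeR adjusted p of 0.0460 was only just under the threshold; the call was lost in 12 of 19 other settings, with adjusted p up to 0.376 for Pcdha12. Leaving out intact replicate 2, 3 or 4, or deleted replicate 1, 2 or 3, was enough to lose it, with adjusted p from 0.0837 to 0.140 and log2 fold changes from -0.32 to -0.22. Pcdha8 had the largest rise of any member but one of the lowest levels: it was counted 9, 10, 22 and 11 times in intact and 53, 22, 33 and 24 times in deleted libraries. Intact replicate 3 and deleted replicate 2 had the same count. The log2 fold change was 1.28 (SE 0.35, edgeR adjusted p = 0.00684), and 5.34% of the windows of Pcdha8 also occur in other genes. Pcdha7, outside the naming rule, had 2.71 ± 0.527 CPM in intact and 3.50 ± 0.520 CPM in deleted libraries and did not pass (edgeR adjusted p = 0.0587), but it passed in 8 of the 19 other settings.

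The 34 members that were tested but not called had log2 fold changes of -0.37 to 0.37 with SEs of 0.07 to 0.33. For the members at the wide end of this range, such as Pcdha1 (7 to 18 counts a library, SE 0.33), a 1.5-fold change would not have been detectable. For the well-measured members the room for change was narrow: Pcdhga5 had a log2 fold change of 0.00 with an SE of 0.07, Pcdhgb7 one of -0.03 with an SE of 0.07, and Pcdhb20 one of 0.01 with an SE of 0.09. Within the groups, the libraries also differed in a way shared by many members. Intact replicate 3 was the highest intact library for 33 of the 56 members and the lowest for none, and deleted replicate 1 was the highest deleted library for 26.

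Summed over all 58 members, the libraries held 597.8, 600.2, 656.1 and 607.2 CPM in the intact group and 525.0, 477.0, 496.1 and 497.2 CPM in the deleted group. The groups did not overlap. The mean fell from 615.3 ± 27.5 to 498.8 ± 19.8 CPM, a log2 ratio of -0.30, which is given without a test. In the same libraries the neuron markers summed to 7365 ± 338.1 and 5491 ± 234.4 CPM, and their part in the lower member sum was not tested. Most of the difference in the member sum lay in Pcdhgc3. Without it, the remaining 57 members summed to 403.5, 413.4, 455.3 and 428.1 CPM in intact and 432.8, 380.0, 405.2 and 385.8 CPM in deleted libraries, which overlap (means 425.1 ± 22.5 and 400.9 ± 23.8 CPM, log2 ratio -0.08). With library totals in place of TMM scaling the log2 ratio of all members was -0.24.

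By cluster, the alpha genes summed to 59.7 ± 4.75 CPM (intact) and 55.7 ± 3.26 CPM (deleted), and the beta genes to 98.4 ± 6.46 and 86.7 ± 5.44 CPM. Both pairs overlapped between groups. The gamma sum was 457.2 ± 18.5 and 356.4 ± 13.8 CPM without overlap (log2 ratio -0.36, or -0.30 with library totals or upper-quartile scaling), but 266.9 ± 15.9 and 258.5 ± 19.5 CPM once Pcdhgc3 was set aside. Within the gamma cluster the difference lay in the 3 C-type genes, which summed to 218.5 ± 11.1 and 118.1 ± 9.79 CPM. The gamma A genes summed to 157.3 ± 9.57 and 154.2 ± 10.5 CPM, and the gamma B genes to 81.4 ± 4.15 and 84.1 ± 8.79 CPM, with overlap in both.

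**Figure D5:**
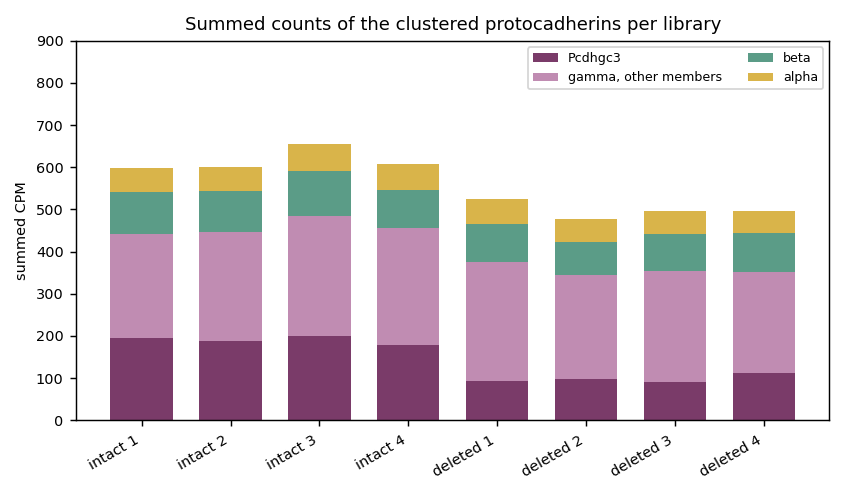
Summed CPM of the clustered protocadherins in each library, stacked from Pcdhgc3 at the bottom through the other gamma members and the beta members to the alpha members. The Pcdhgc3 block is between 179.1 and 200.9 CPM in the intact libraries and between 91.0 and 111.4 CPM in the deleted libraries, while the blocks above it differ little between the groups.

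The make-up of the clustered protocadherin RNA shifted accordingly. Pcdhgc3 supplied 30.9% ± 1.25 of all member counts in the intact libraries and 19.7% ± 2.17 in the deleted libraries. Pcdhga11 supplied 3.61% and 6.70%. The alpha cluster's share was 9.69% ± 0.379 and 11.2% ± 0.335, the beta cluster's 16.0% ± 0.725 and 17.4% ± 0.865, and the gamma cluster's 74.3% ± 0.630 and 71.5% ± 0.566. Shares sum to a whole, so the smaller share of Pcdhgc3 enlarges the summed share of the other members, though not the share of each. Pcdhga6, for example, supplied 2.04% in intact and 1.32% in deleted libraries.

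Genes that shape the folding and silencing of the clusters were counted beside the members. Of 20 such factors, 4 rose and 10 fell (median log2 fold change -0.09), so that 70.0% changed, against 63.5% of all genes tested. Rad21, the cohesin subunit that closes the ring, fell from 415.6 ± 13.4 to 295.6 ± 6.14 CPM (log2 fold change -0.49), and Pds5a, a regulator of cohesin's hold on DNA, from 181.4 ± 5.18 to 135.1 ± 7.35 CPM (-0.43). Trim28, a corepressor, fell from 817.5 ± 10.8 to 639.5 ± 20.2 CPM (-0.35). Ctcf, named outside the rule, went from 222.3 ± 6.87 to 188.8 ± 2.05 CPM (-0.24, edgeR adjusted p = 4.43e-05). In the other direction, Dnmt3b, the DNA methyltransferase that sets methylation at variable exon promoters, rose from 7.27 ± 0.514 to 11.5 ± 0.771 CPM (0.66). Mau2, a partner in loading cohesin, and Setdb1, a histone H3 lysine methyltransferase, rose by 0.23 and 0.17.

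Of 20 intracellular partners of the clustered protocadherins, 6 rose and 7 fell, so that 65.0% changed, against 63.5% of all genes tested. Ctnnb1, the beta-catenin of the Wnt pathway, rose from 1783 ± 36.5 to 2186 ± 35.0 CPM (log2 fold change 0.29), and Wasf1 and Abi1, which encode parts of the actin-regulating WAVE complex, by 0.19 and 0.17. Of the other WAVE complex genes in the list, named outside the rule, Brk1 rose by 0.14, Cyfip1 fell by 0.10 on the log2 scale, and Cyfip2, Nckap1 and Abi2 did not pass. The synaptic adhesion genes Nlgn2 and Nlgn1 fell by 1.20 and 0.59 on the log2 scale, and Fmnl2, an actin regulator, by 0.44. Axin1, the partner of the Pcdhgc3 protein, named outside the rule, was at 80.0 ± 2.49 and 88.2 ± 3.35 CPM (0.14, edgeR adjusted p = 0.00496).

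Adhesion genes outside the clusters were counted in the same way. Of 12 non-clustered protocadherins, whose genes are not part of the clusters, 4 rose and 6 fell. Pcdh20 fell from 9.51 ± 0.989 to 2.89 ± 0.506 CPM (log2 fold change -1.72, edgeR adjusted p = 2.24e-07), Pcdh18 by 0.45, Pcdh1 by 0.35 and Pcdh7 by 0.32 on the log2 scale, while Pcdh19 and Pcdh12 rose by 0.40 and 0.22. Pcdh12 no longer passed without intact replicate 1 or 4 or deleted replicate 3 (edgeR adjusted p from 0.0531 to 0.0846). Of 22 classical and atypical cadherins tested, 2 rose (Cdh22 by 0.64 and Fat1 by 0.40) and 12 fell, among them Cdh13 (-1.24), Cdh10 (-1.05) and Cdh8 (-0.67). Of 14 other genes for self-recognition and guidance of dendrites and axons, none rose and 12 fell (median log2 fold change -0.42). The 12 neuron markers, of which 10 fell, had a median of -0.39, and their part in this was not tested. The genes that fell included Dscaml1 (-0.73), Robo2 (-0.77), Robo1 (-0.70) and Tenm3 (-0.41). These shares, 83.3%, 63.6% and 85.7%, are given beside the 39.3% of the members and the 63.5% of all genes as a description.

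Genes annotated next to the clusters gave no common direction. Of 20 tested, 6 rose and 9 fell (median log2 fold change -0.03). Upstream of the alpha cluster, Apbb3 rose from 26.3 ± 1.19 to 42.5 ± 1.29 CPM (log2 fold change 0.69), Eif4ebp3 by 0.46 and Hars by 0.23, while Slc35a4 fell by 0.47. Downstream of the gamma cluster, Hdac3 and Diaph1 rose by 0.44 and 0.13. Between the beta and gamma clusters lies Taf7, an intronless gene for a TFIID subunit, named outside the rule, which fell from 29.4 ± 1.28 to 23.6 ± 2.16 CPM (-0.32, edgeR adjusted p = 7.80e-04).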

How the data were processed

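Polyadenylated RNA from the cerebral cortex of 8 embryos (RNeasy kit, TruSeq version 2, unstranded) was sequenced from both ends, per the labels' protocols. The authors deposited whole-number counts per gene, not normalised, and per-embryo lists identical to the matrix in all 8 cases. The submitters' processing notes name bcl2fastq 1.8.4, Subread 1.5.0, featureCounts and mm10. The annotation and the handling of reads that overlap several genes or map to several places are not stated there. Of 27179 gene identifiers, 25275 matched a symbol in RefSeq's GRCm38.p6 table, among them all 58 members. Exons came from GENCODE vM21.

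Counts were tested over all 8 libraries with edgeR 4.0.16 in R 4.3.3: filterByExpr (16074 genes kept), TMM factors, quasi-likelihood test with robust estimation, no covariates, Benjamini-Hochberg adjustment over all genes tested, threshold 0.05. Each SE is the log2 fold change over the square root of F. The script was first tested on simulated data. Replicate libraries differed by more than sampling noise (chi-square per gene 4.22 to 14.6 in each pair). Repeats of 100 bases were counted over GENCODE transcripts, leaving out genes with exons that overlap the member's first exon.

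The members and lists were chosen with earlier results of these data known. By the naming rule, each subgroup gave the 4 called members with the largest change at a mean log2 CPM of at least 0, its most abundant member and the largest opposite change; each other list gave up to 4 genes with the smallest p and up to 2 in the opposite direction. Alternatives were other scalings (median ratio, upper quartile, library totals), other filters, DESeq2 1.42.0, limma 3.58.1 voom, the replicate block, leaving out each library, and 2 library pairs chosen after seeing the data.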

Additional observations from a re-analysis of the deposited data

Results flagged for a closer look

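A total of 122 groups of 4 libraries (each member tested or summed, in each genotype) were searched for a library far from the other 3, and 9 stood apart. Chance gives about 1 in 20, or about 6 of 122, and the groups share the same libraries. Of these, 5 were high values of Taf8-intact replicate 3: Pcdha8 at 0.535 CPM (others 0.209 to 0.261), Pcdhb5 at 4.45 (3.65 to 3.72), Pcdhb14 at 2.63 (1.90 to 2.00), Pcdhgb2 at 10.4 (8.20 to 8.56) and the sum of all members at 656.1 (597.8 to 607.2). Taf8-intact replicate 1 was low for Pcdhga3, at 8.72 CPM (others 11.1 to 11.6). In the deleted group, replicate 4 was high for Pcdhb6 at 2.02 CPM (others 1.75 to 1.79), replicate 1 high for Pcdhga12 at 20.9 CPM (19.0 to 19.3), and replicate 3 low for Pcdhga9 at 6.03 CPM (7.14 to 7.36).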

How the results depend on the processing

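No call of a member reversed in any of 19 other settings, and 14 of the 22 members called were lost in at least 1. Without deleted replicates 2 and 3, which leaves 2 deleted libraries, 12 members were called, 4 higher and 8 lower, beside 8885 of 16375 genes. Without intact replicate 4 and deleted replicate 1, which had the highest choroid plexus sums, 18 members were called, 4 of them higher, beside 9135 of 16073 genes. Leaving out 1 library in turn gave 17 to 23 members called, 4 to 8 higher, 12 to 15 lower, and 12 to 20 without overlap. Over all genes, 9586 to 10127 were called in these fits, and 60.1% to 63.0% were without overlap. The log2 ratio of the summed members was -0.24 with library totals, and that of the gamma members -0.30 with library totals and -0.30 with upper-quartile factors. Library totals moved the median log2 fold change of all genes to 0.062. Labels of both groups run from replicate 1 to 4, but same-numbered libraries did not deviate together (correlations -0.229, 0.005, 0 and -0.455). With the replicate block 21 members were called, 7 higher and 14 lower, over 9665 genes called; Pcdhb22 and Pcdhgb5 were lost and Pcdha7 gained. Depth limits the members with few counts: Pcdha4 and Pcdhb1 could not be tested, and Pcdha8 rests on 9 to 53 counts a library.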
